A study of Homo sapiens with 18 samples.

Results

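The data describe 10 genes that interferons are known to induce, IFI6, IFI16, IFI27, IFI35, IFI44, IFI44L, MX1, MX2, XAF1 and BST2, in OVCAR3 cells, an established line of high-grade serous ovarian carcinoma, after exposure to antibodies. The genes were taken by symbol from the counts of both series of libraries, 10 of 55765 symbols in each. They were chosen by earlier results of these data, in which they were higher after antigen-specific IgA, so their difference between those cells and untreated cells is given as a description and not as a test. RNA was sequenced from 18 libraries, 3 in each of 6 groups. In the first series OVCAR3 cells received 0.5 µg/ml non-specific human IgA, the same dose of human IgG, or no antibody. In the second series they received 0.5 µg/ml IgA against TSPAN7, a tetraspanin of the cell surface, IgA against BDNF, a neurotrophin, or no antibody. The specific IgA came from supernatants of immortalised B-cell clones sorted from ovarian tumours, whereas the non-specific antibodies were natural human immunoglobulins, and no group of the second series received IgG or non-specific IgA. All cells were kept in RPMI medium with little serum, and exposure lasted 24 h according to the sample descriptions, although another description of the experiments gives a shorter time. Groups were compared only within a series.

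Interferons are secreted proteins that signal between cells. Type I and type III interferons bind their receptors, the receptor-bound kinases JAK1 and TYK2 phosphorylate STAT2 among other proteins, and STAT2 joins IRF9 in a complex that binds the interferon-stimulated response element (ISRE) in promoters. Interferon gamma uses other receptor chains and acts through gamma-activated sites (GAS). In carcinoma cells, as in most cells, the genes induced this way encode antiviral proteins, sensors of nucleic acids and regulators of cell death.

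The 10 genes fall into groups by what their proteins do. IFI6 (chr1:27992575-27998723, minus strand, GRCh37) and IFI27 (chr14:94571182-94583032, plus strand) encode small hydrophobic membrane proteins of the same family. IFI44 (chr1:79115481-79129763, plus strand) and IFI44L (chr1:79085587-79111830, plus strand) are neighbouring relatives that encode antiviral proteins of the cytoplasm. MX1 (chr21:42791947-42841998, plus strand) and MX2 (chr21:42733926-42781320, plus strand) are likewise neighbours and encode dynamin-like GTPases that block early steps of viral replication. IFI16 (chr1:158969758-159024945, plus strand) encodes a sensor of DNA, and IFI35 (chr17:41158757-41166473, plus strand) a leucine zipper protein that pairs with NMI. XAF1 (chr17:6658766-6678966, plus strand) encodes a factor that opposes the caspase inhibitor XIAP. BST2 (chr19:17513748-17516439, minus strand) encodes tetherin, which holds budding virions at the cell surface. In the annotation used here an exon of MX1 shares 442 bases with TMPRSS2 on the opposite strand, and no source says that strand was used in counting, so reads of that stretch cannot be assigned to either gene.

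The letters of the members' promoters are shown beside their values as a description. The members were chosen as higher in the second series, so that they moved together there describes the choice. RefSeq promoters (GRCh38.p14) were matched for 9 of the 10 genes. MX2 had no entry. The ISRE core was searched as GAAANNGAAA on both strands in the 250 bases before each start. It was present in 6 of the 9 genes and in 3.71% of all 27305 genes of the table, or in 8 of their 15 promoters and 3.02% of 35116 promoters. The stretches below hold every ISRE core found in the members, with the core in capitals; a core written as TTTC at its left end lies on the opposite strand. The stretch of IFI6 lies at chr1:27672264-27672360 (minus strand), of IFI27 at chr14:94110616-94110662 (plus strand), of IFI44 at chr1:78649759-78649788 (plus strand), of IFI44L at chr1:78620272-78620396 (plus strand), of MX1 at chr21:41431842-41431875 (plus strand) and of BST2 at chr19:17405733-17405772 (minus strand), all GRCh38.p14.
IFI6: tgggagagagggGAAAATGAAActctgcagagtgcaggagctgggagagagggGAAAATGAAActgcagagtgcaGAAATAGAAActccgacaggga
IFI27: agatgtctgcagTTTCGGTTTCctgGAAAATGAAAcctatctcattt
IFI44: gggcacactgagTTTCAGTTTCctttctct
IFI44L: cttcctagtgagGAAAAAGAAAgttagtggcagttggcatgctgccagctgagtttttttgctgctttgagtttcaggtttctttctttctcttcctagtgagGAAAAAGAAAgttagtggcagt
MX1: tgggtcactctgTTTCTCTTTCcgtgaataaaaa
BST2: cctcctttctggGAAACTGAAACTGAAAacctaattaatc

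IFI6 held 3 ISRE cores, IFI27, IFI44L and BST2 held 2 each, and IFI44 and MX1 held 1 each. Those of BST2 overlap each other, and the core of MX1 lies before the last of its 3 listed starts. In the window before the starts of IFI16, IFI35 and XAF1 these letters were not found. The GAS core, searched as TTCNNNGAA, was present in 4 of the 9 genes (IFI27, IFI35, MX1 and BST2) and in 8.09% of all genes. In IFI27, in MX1 and at 1 of 2 places in BST2 it overlapped an ISRE core. A match of letters is a description of the sequence and does not show that a factor binds there.

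**Figure D1:**
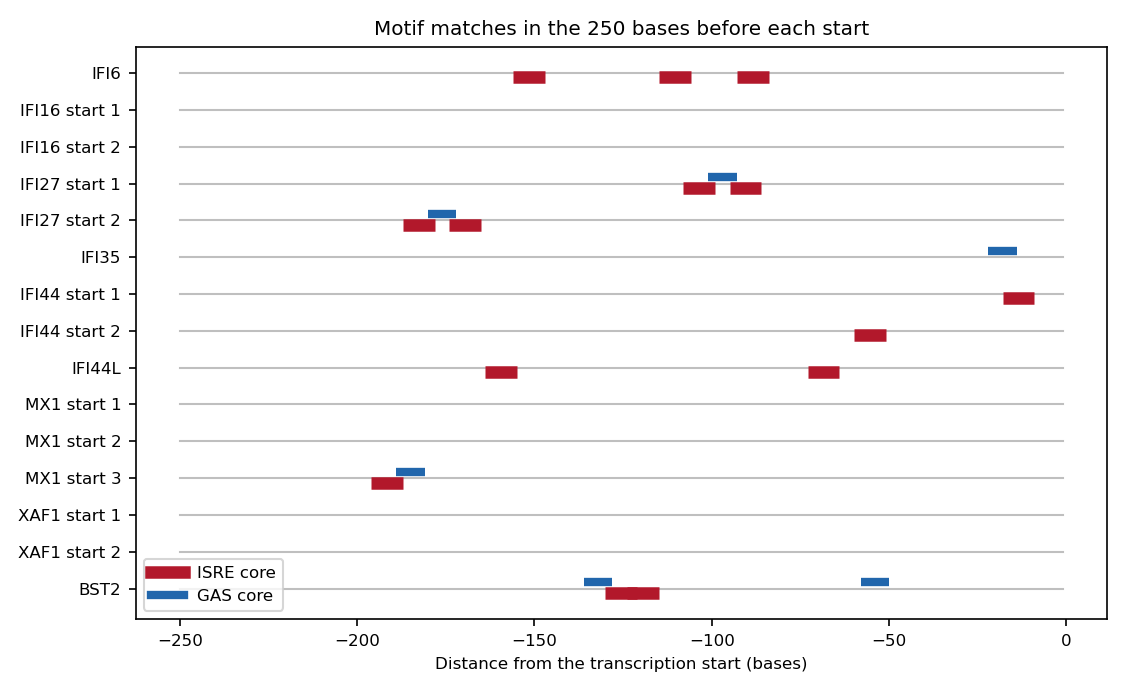
Matches to the ISRE core (red) and the GAS core (blue) in the 250 bases before each RefSeq start of 9 of the genes, 1 line per listed start, plotted by distance from the start in bases. IFI6 has 3 ISRE cores, and the lines of IFI16 and XAF1 are empty.

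A library of the first series held 27920733 to 42371474 counts, and a library of the second 39254350 to 47381836. The members together took 2205 to 3620 of those counts per library in the first and 11695 to 49934 in the second. In IgA replicate 3 the mitochondrial genes made up 19.1% of the counts, against 5.75% in the library with the lowest share of that series. The common dispersion between replicates was 0.0307 in the first and 0.00303 in the second, so the same difference has a wider error in the first. Markers of serous ovarian carcinoma were present in every library, PAX8 at 419 CPM (counts scaled to a library of 1000000) or more and EPCAM at 188 or more. The labels do not say whether replicates were separate cultures, so p-values measure only the spread between these libraries, which may be technical.

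Levels of the members before any antibody are described for each series on its own. Summed over the 10 genes, untreated cells of the first series gave 84.3, 86.4 and 73.7 CPM, and untreated cells of the second gave 279.5, 306 and 255. Untreated levels of single genes are given as CPM per kilobase of the canonical transcript (SD, n = 3). CPM was scaled within each series, so these values describe each series and were not compared between them. On this scale untreated XAF1 stood at 0.0684 ± 0.0315 in the first series and at 1.52 ± 0.196 in the second. IFI6 stood at 8.68 ± 1.72 and 53.3 ± 5.25, and BST2 at 23.0 ± 2.35 and 89.3 ± 6.50. MX2 stood at 0.968 ± 0.185 and 0.953 ± 0.266. The normalised counts given further on bring every library of a series to that series' average effective depth. They serve comparison within a series only. Series and every condition that differed between their preparation cannot be told apart, and these levels were not tested against each other.

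Levels of different genes were compared as CPM divided by the kilobases of the canonical transcript. In untreated cells of the first series BST2 was highest at 23.0 ± 2.35 (SD, n = 3), followed by IFI27, IFI35, IFI6, IFI44, MX1, IFI16, MX2, IFI44L and XAF1. Of the 9 neighbouring pairs in that order 5 overlapped, among them IFI27 with IFI35 and MX1 with IFI16. In untreated cells of the second series BST2 was again highest at 89.3 ± 6.50, and the order went on with IFI6, IFI27, IFI35, IFI44, IFI16, MX1, IFI44L, XAF1 and MX2, where 1 pair, IFI44 and IFI16, overlapped. After BDNF IgA, IFI6 stood at 277 ± 29.7, IFI27 at 252 ± 34.0 and BST2 at 203 ± 16.9 on the same scale, with IFI27 overlapping each of the others. After TSPAN7 IgA, IFI6 at 238 ± 1.44 lay above IFI27 at 197 ± 6.84, and IFI27 overlapped BST2 at 188 ± 11.3. MX2 was the lowest member in all 3 groups of the second series, and XAF1 in all 3 groups of the first. With the union of all annotated exons as the length, a choice added after the data were seen, IFI27 fell below other members. It took the fifth place in untreated cells of the first series and the sixth in those of the second. After specific IgA its order with BST2 turned. IFI27 then stood at 43.7 and BST2 at 184 with BDNF IgA, and at 34.1 and 171 with TSPAN7 IgA, without overlap.

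**Figure D2:**
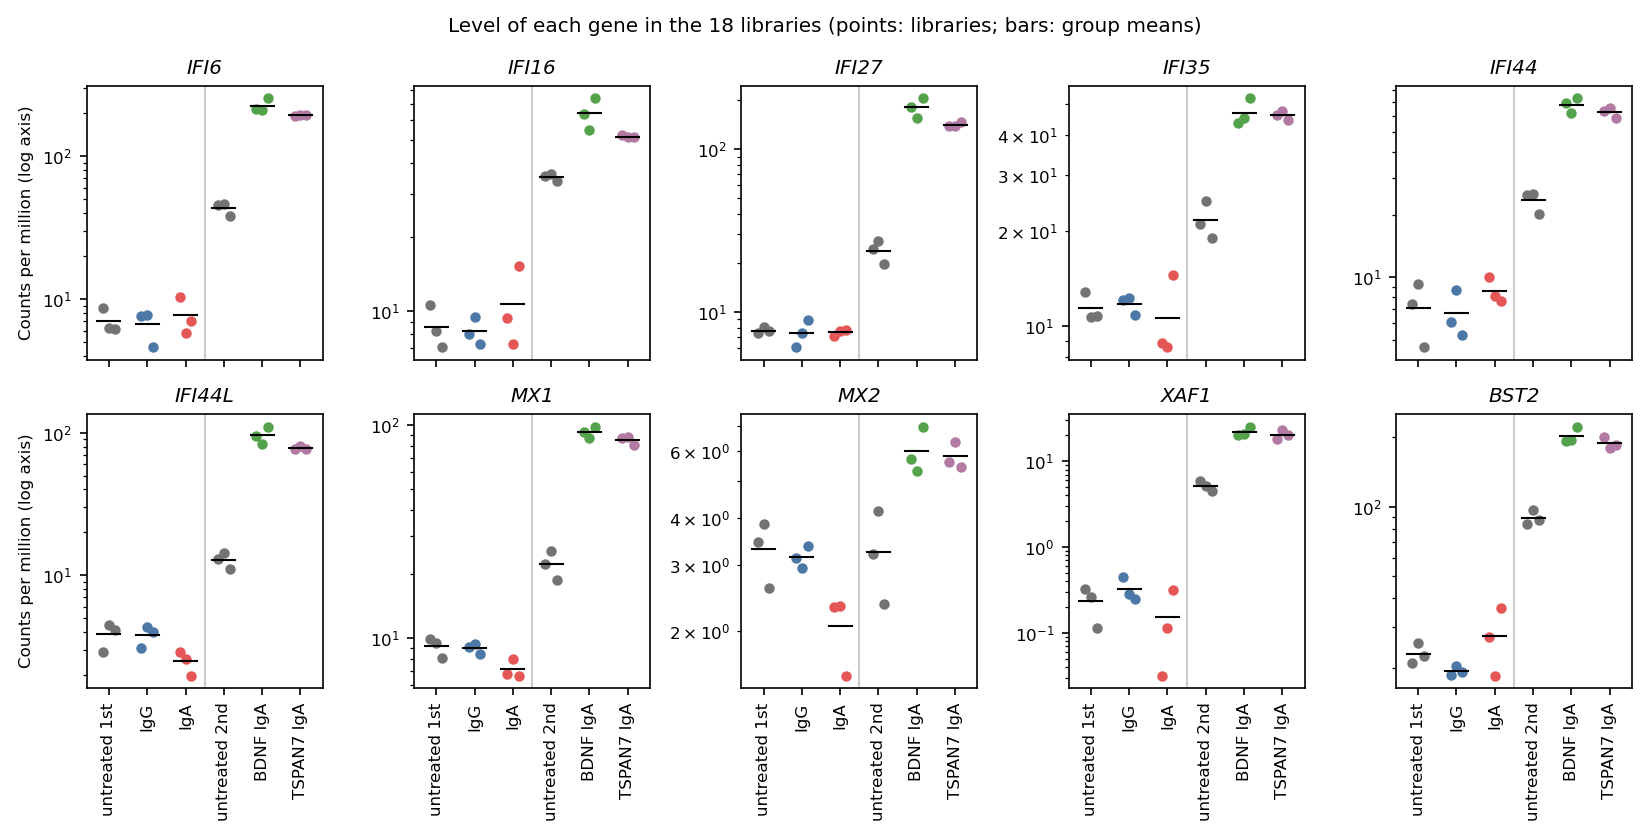
Level of each gene in CPM in the 18 libraries, on log axes, 1 panel per gene; points are libraries, bars are means of 3, and the grey line separates the series. In every panel the 6 libraries with BDNF IgA or TSPAN7 IgA sit above the untreated libraries of the second series. The IgG libraries overlap untreated libraries of the first for every gene but BST2. Over all genes, IgG and untreated libraries did not overlap for 6.75%.

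The second series asked how tumour cells respond to IgA of a known specificity. All 10 members were higher after BDNF IgA and all 10 after TSPAN7 IgA, with no overlap with untreated libraries for any member in either comparison. All 10 passed the edgeR quasi-likelihood test at an adjusted p under 0.05 as higher in both comparisons, where 4.49% of 18732 genes were called higher and 3.18% lower with BDNF IgA, and 4.46% higher and 4.08% lower with TSPAN7 IgA. Libraries did not overlap, in either direction, for 24.8% and 28.4% of all genes. The members were selected on these contrasts, so the counts describe the choice. The median log2 fold change of the members was 1.799 with BDNF IgA and 1.68 with TSPAN7 IgA, against 0.00 for all genes tested in each. Both comparisons use the same untreated libraries. In bulk RNA, more cells that express a gene and more RNA per cell cannot be told apart.

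The small membrane proteins IFI6 and IFI27 and the relative IFI44L moved furthest. IFI27 stood at 1032, 1164 and 835 normalised counts in the untreated libraries, at 7647, 6623 and 8689 after BDNF IgA, and at 5846, 5859 and 6212 after TSPAN7 IgA. The 6 libraries with specific IgA lay far above the untreated ones, and the BDNF IgA libraries lay above those with TSPAN7 IgA. Its log2 fold change was 2.92 (SE 0.093), or 7.59-fold, with BDNF IgA, the highest of all 18732 genes, and 2.57 (SE 0.093), or 5.92-fold, with TSPAN7 IgA, the second highest. IFI6, its family member, stood at 1917, 1962 and 1629 in untreated cells, at 8968, 8897 and 10704 after BDNF IgA and at 8125, 8219 and 8199 after TSPAN7 IgA. The 3 TSPAN7 IgA libraries of IFI6 were nearly level and all lay below the BDNF IgA libraries. Its log2 fold changes were 2.38 (SE 0.070) and 2.16 (SE 0.069).

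IFI44L and IFI44, which lie side by side, differed in size. IFI44L stood at 547, 606 and 470 normalised counts in untreated cells, at 4022, 3535 and 4684 after BDNF IgA and at 3235, 3394 and 3253 after TSPAN7 IgA. All TSPAN7 IgA libraries were again below all BDNF IgA libraries. Its log2 fold changes were 2.92 (SE 0.089) and 2.61 (SE 0.089), the second highest and the highest of all genes. IFI44 stood at 1057, 1072 and 854, at 2928, 2611 and 3080, and at 2683, 2774 and 2493 in the same groups, so that the specific IgA groups overlapped. Its log2 fold changes were 1.53 (SE 0.076) and 1.42 (SE 0.076), each less than that of IFI44L by more than 1 on the log2 scale.

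The paired GTPases showed a similar split. MX1 stood at 942, 1081 and 797 normalised counts in untreated cells, at 3929, 3682 and 4167 after BDNF IgA and at 3691, 3736 and 3409 after TSPAN7 IgA, with overlap between the last 2 groups. Its log2 fold changes were 2.06 (SE 0.077) and 1.94 (SE 0.077). MX2, which has few counts, stood at 136, 177 and 100.2, at 243, 225 and 296, and at 239, 270 and 231. The lowest library with specific IgA, at 225, lay above the highest untreated one, at 177. The log2 fold changes of MX2 were 0.89 (SE 0.16) and 0.85 (SE 0.16), or 1.86-fold and 1.798-fold.

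XAF1, the opponent of XIAP, stood at 249, 221 and 192 normalised counts in untreated cells, at 869, 882 and 1076 after BDNF IgA and at 762, 979 and 849 after TSPAN7 IgA. It was higher in all 6 libraries, with log2 fold changes of 2.10 (SE 0.11) and 1.97 (SE 0.11). BST2, the tether of virions and the most abundant member in untreated cells, stood at 3575, 4102 and 3696, at 8144, 8224 and 9423, and at 8522, 7600 and 7826. Its level about doubled, with a fold of 2.27 with BDNF IgA and 2.11 with TSPAN7 IgA, and log2 fold changes of 1.18 (SE 0.061) and 1.07 (SE 0.061).

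IFI35 and the DNA sensor IFI16 had smaller fold changes. IFI35 stood at 891, 1054 and 803 normalised counts in untreated cells, at 1856, 1912 and 2211 after BDNF IgA and at 1961, 2021 and 1885 after TSPAN7 IgA, with log2 fold changes of 1.12 (SE 0.080) and 1.10 (SE 0.080). IFI16 stood at 1501, 1539 and 1433, at 2694, 2322 and 3129, and at 2209, 2173 and 2170. The TSPAN7 IgA libraries of IFI16 differed by little among themselves and lay below each BDNF IgA library. Its log2 fold changes were 0.87 (SE 0.074) and 0.55 (SE 0.075), places 251 and 703 among all genes. Of the 5 members with a log2 fold change over 2 with BDNF IgA, IFI6, IFI27, IFI44L and MX1 held an ISRE core and XAF1 held none. Of the other 4 with a promoter entry, IFI44 and BST2 held one and IFI16 and IFI35 did not. The cut at 2 serves description only, and a link between the core and the size of the change was not tested.

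**Figure D3:**
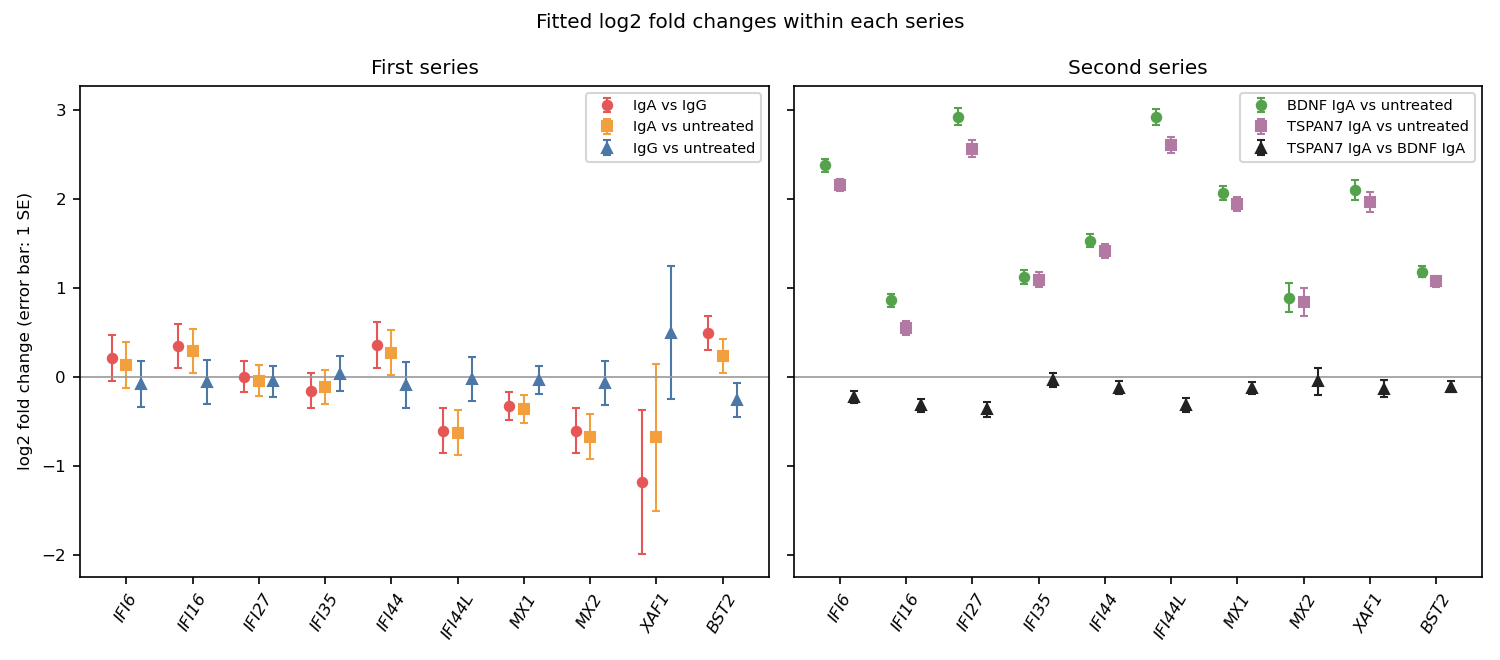
Fitted log2 fold changes of the 10 genes in the 3 comparisons of the first series (left) and the 3 of the second (right); points are estimates and bars are 1 standard error. The members lie between -1.18 and 0.50 in the first series, with the widest bars for XAF1, between 0.55 and 2.92 against untreated cells in the second, and between -0.36 and -0.03 for TSPAN7 IgA against BDNF IgA.

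Direct comparison of the specific antibodies asked whether the size of the difference varied between them. The antibodies differed in B-cell clone as well as in antigen, and these cannot be told apart here. All 10 members had fitted values below 0 for TSPAN7 IgA against BDNF IgA, and 4 of them passed the test, where 4.5% of all genes were called lower and 3.42% higher. The median over the members was -0.12, against 0.00 over all genes. The members called were IFI27 with a log2 difference of -0.36 (SE 0.083, adjusted p = 0.0101), IFI16 with -0.31 (SE 0.073, adjusted p = 0.00982), IFI44L with -0.31 (SE 0.077, adjusted p = 0.0164) and IFI6 with -0.22 (SE 0.064, adjusted p = 0.0392), all by edgeR's quasi-likelihood test with Benjamini-Hochberg adjustment over 18732 genes. For these 4 genes the libraries of both groups did not overlap, as for 23.6% of all genes in either direction. The comparison shares its libraries with the contrasts on which the members were selected.

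The other 6 members did not pass. The 95% interval of the log2 difference ran from -0.19 to 0.13 for IFI35, from -0.26 to 0.03 for IFI44, from -0.27 to 0.03 for MX1, from -0.36 to 0.27 for MX2, from -0.33 to 0.07 for XAF1 and from -0.23 to 0.02 for BST2. BDNF IgA replicate 3 gave the highest value of the 9 libraries for each of the 10 members, with 1119 CPM summed over them, against 974 and 918 in the other BDNF IgA libraries and 862 to 879 in the TSPAN7 IgA libraries. Without BDNF IgA replicate 3 none of the 10 passed, at log2 differences of -0.26 for IFI27, -0.20 for IFI16, -0.20 for IFI44L and -0.13 for IFI6. None passed without TSPAN7 IgA replicate 2, 1 (IFI16) without TSPAN7 IgA replicate 1 and 2 (IFI16 and IFI27) without TSPAN7 IgA replicate 3. DESeq2 called 3 of the 4, with IFI27 at an adjusted p of 0.0904.

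In the first series the members did not follow that pattern. None of the 10 passed the test in IgA against IgG, IgA against untreated cells or IgG against untreated cells by edgeR or by DESeq2, and 3, 3 and 0 members had an unadjusted p under 0.05 by edgeR. Of all 18012 genes 6758, 6777 and 89 did, so the members' share in the IgA comparisons was no higher than that of all genes. In IgA against IgG 12.6% of 18012 genes were called higher and 11.6% lower, and libraries did not overlap for 40.3%. In IgA against untreated cells these shares were 12.9%, 12.1% and 39.9%. In IgG against untreated cells no gene was called by either tool, 0% in each direction, with 139 genes at an unadjusted p under 0.05 by DESeq2, and libraries did not overlap for 6.75%. The median log2 fold change of the members was -0.07, -0.07 and -0.05, against -0.01, -0.01 and 0.00 over all genes. IFI27 stood at 262, 284 and 268 normalised counts in untreated cells, 214, 262 and 313 with IgG and 250.03, 271 and 272 with IgA. Its log2 difference of IgA from untreated cells was -0.04, with a 95% interval from -0.41 to 0.33.

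With non-specific IgA the MX genes and IFI44L stood below IgG-treated and untreated cells on average. MX1 stood at 349, 335 and 285 normalised counts in untreated cells, at 319, 331 and 296 with IgG and at 239, 283 and 235 with IgA, and every IgA library lay below the other 6. Its log2 difference was -0.32 (SE 0.16, adjusted p = 0.158) from IgG and -0.35 (SE 0.16, adjusted p = 0.119) from untreated cells, by edgeR's quasi-likelihood test. MX2 stood at 121, 135 and 91.8, at 110.1, 104 and 119, and at 81.8, 81.9 and 53.7, again with every IgA library below the other 6. Its log2 differences were -0.60 (SE 0.26, adjusted p = 0.105) and -0.67 (SE 0.25, adjusted p = 0.0722). IFI44L stood at 102, 158 and 146, at 108, 151 and 141, and at 102, 90.9 and 69.5, so that IgA overlapped untreated cells but not IgG. Its log2 differences were -0.60 (SE 0.25, adjusted p = 0.102) and -0.62 (SE 0.25, adjusted p = 0.0890). These 3 genes passed as lower in both comparisons when libraries were scaled by their totals alone. That scaling moved the median of all genes to -0.25 and -0.22. As normalised counts, libraries did not overlap for 3 of the 10 members against IgG, and for 40.3% of all genes. Against untreated cells they did not overlap for 2 of the 10 members, and for 39.9% of all genes.

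For BST2, IFI16 and IFI35 the IgA libraries lay apart from each other. BST2 stood at 738, 901 and 795 normalised counts in untreated cells, at 653, 718 and 674 with IgG and at 961, 652 and 1280 with IgA. Its log2 difference from IgG was 0.49 (SE 0.19, adjusted p = 0.0778 by edgeR's quasi-likelihood test), and all IgG libraries lay below all untreated ones. IFI16 stood at 370, 290 and 249, at 284, 331 and 258, and at 327, 258 and 534, and IFI35 at 450, 377 and 379, at 426, 432 and 382, and at 312, 302 and 509. In each of the 3 genes the highest of the IgA libraries was IgA replicate 3, the library with the raised mitochondrial share, which was also the lowest for IFI44L, MX1 and MX2. Without that library the log2 difference from untreated cells was -0.05 for IFI16 and -0.01 for BST2, and IFI35 passed as lower than with IgG at -0.43 (adjusted p = 0.0439 by edgeR's quasi-likelihood test). Without IgA replicate 2, BST2 passed as higher in both comparisons, at 0.71 against IgG and 0.46 against untreated cells. Without mitochondrial genes in the fit none of the 10 members passed.

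None of the remaining members was called. IFI6 stood at 305, 224 and 217 normalised counts in untreated cells, at 270, 273 and 163 with IgG and at 367, 205 and 248 with IgA, and IFI44 at 263, 329 and 162, at 216, 307 and 187, and at 353, 286 and 272. The groups overlapped for both genes. The 95% interval of the log2 difference of IgA from IgG ran from -0.34 to 0.77 for IFI6 and from -0.19 to 0.92 for IFI44. From untreated cells it ran from -0.41 to 0.69 for IFI6 and from -0.28 to 0.83 for IFI44. XAF1 had between 1 and 17 counts in each of these 9 libraries. Its log2 difference of IgA from IgG, -1.18, had a 95% interval from -2.93 to 0.57. From untreated cells the difference was -0.67, with an interval from -2.45 to 1.10. Each interval of XAF1 holds both no change and a large fall, which cannot be told apart at this depth.

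Among other genes of the interferon pathway, 75 were listed by role and 61 passed the filter on low counts in each series. The list was drawn up with earlier results of these data known. With BDNF IgA 39 of the 61 were called higher and 1 lower, with a median log2 fold change of 0.62, and with TSPAN7 IgA 38 higher and 2 lower, with a median of 0.48. With non-specific IgA 10 were higher and 6 lower against IgG (median 0.07), where 12.6% of all genes were called higher and 11.6% lower. Against untreated cells non-specific IgA gave 10 higher and 7 lower (median 0.01), where the shares of all genes were 12.9% and 12.1%. With IgG 0 were called in either direction (median -0.02), as over all genes. The shares of all genes were 4.49% higher and 3.18% lower with BDNF IgA, and 4.46% and 4.08% with TSPAN7 IgA. Scaled by library totals alone, the counts with non-specific IgA became 6 higher and 15 lower against IgG and 8 and 14 against untreated cells. Without untreated replicate 1, and likewise without untreated replicate 2, 4 were lower against untreated cells.

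Of the interferons themselves, 10 genes, IFNE was the only member of the list to pass the filter, with 0 to 82 counts per library of the first series and 76 to 134 per library of the second, and no comparison called it. The other 9 had at most 7 counts in any library. In the first series 6 of the 10 were at 0 in every library and in the second 5 were, which allows up to 3 counts, or 0.0633 to 0.107 CPM, in each library and covers counting error only.

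Receptor chains were called in both series, and members of the complex that binds the ISRE in the second. IFNGR1, a chain of the interferon gamma receptor, rose with BDNF IgA (log2 fold change 0.36), TSPAN7 IgA (0.40) and non-specific IgA (0.88 against untreated cells), and IFNGR2, the other chain, rose with non-specific IgA (0.85). IFNAR1, a chain of the type I receptor, fell with TSPAN7 IgA (-0.26) and with non-specific IgA (-0.41). Of that complex, STAT2 rose by 0.53 with BDNF IgA and 0.27 with TSPAN7 IgA, and IRF9 by 1.12 and 0.95. With non-specific IgA the only transducer called was the kinase JAK1, which rose by 0.39 against untreated cells. IRF1, a transcription factor that interferon gamma induces, rose by 1.26 against untreated cells with non-specific IgA, and SOCS3, a feedback inhibitor of cytokine signalling, fell by 1.22. SOCS3 was also the 1 list gene called lower with BDNF IgA, at -0.22, and, beside IFNAR1, 1 of 2 with TSPAN7 IgA, at -0.54; it is named there after its values were seen.

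Of 28 other interferon-induced effectors, 28 rose with BDNF IgA and 27 with TSPAN7 IgA, with medians of 0.86 and 0.84. The largest were ISG15, a ubiquitin-like modifier (2.38 and 2.36), OAS2, which makes the activator of RNase L (2.15 and 1.91), IFITM1, a membrane protein that blocks viral entry (2.03 with BDNF IgA), and IFIT1, which binds viral RNA (1.83 with TSPAN7 IgA). With non-specific IgA 3 of the 28 rose against untreated cells and 4 fell, among them the nucleotide kinase CMPK2, at -1.35. In that comparison 12.9% of all genes were called higher and 12.1% lower. TSPAN7 IgA differed from BDNF IgA in 8 of the 61 genes, all lower, where 4.5% of all genes were called lower and 3.42% higher. The 8 included IFITM1 (-0.43), IFI27L2, a relative of IFI27 (-0.35), SOCS3 (-0.33), STAT2 (-0.26) and IFNAR1 (-0.16). Without BDNF IgA replicate 3, 3 were lower and 1 (IFIT2, named after its values were seen) was higher, at 0.27. The lower genes numbered 3 without TSPAN7 IgA replicate 2, 4 without TSPAN7 IgA replicate 3, 4 without BDNF IgA replicate 1 and 16 without BDNF IgA replicate 2. All calls in these paragraphs are by edgeR's quasi-likelihood test.

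**Figure D4:**
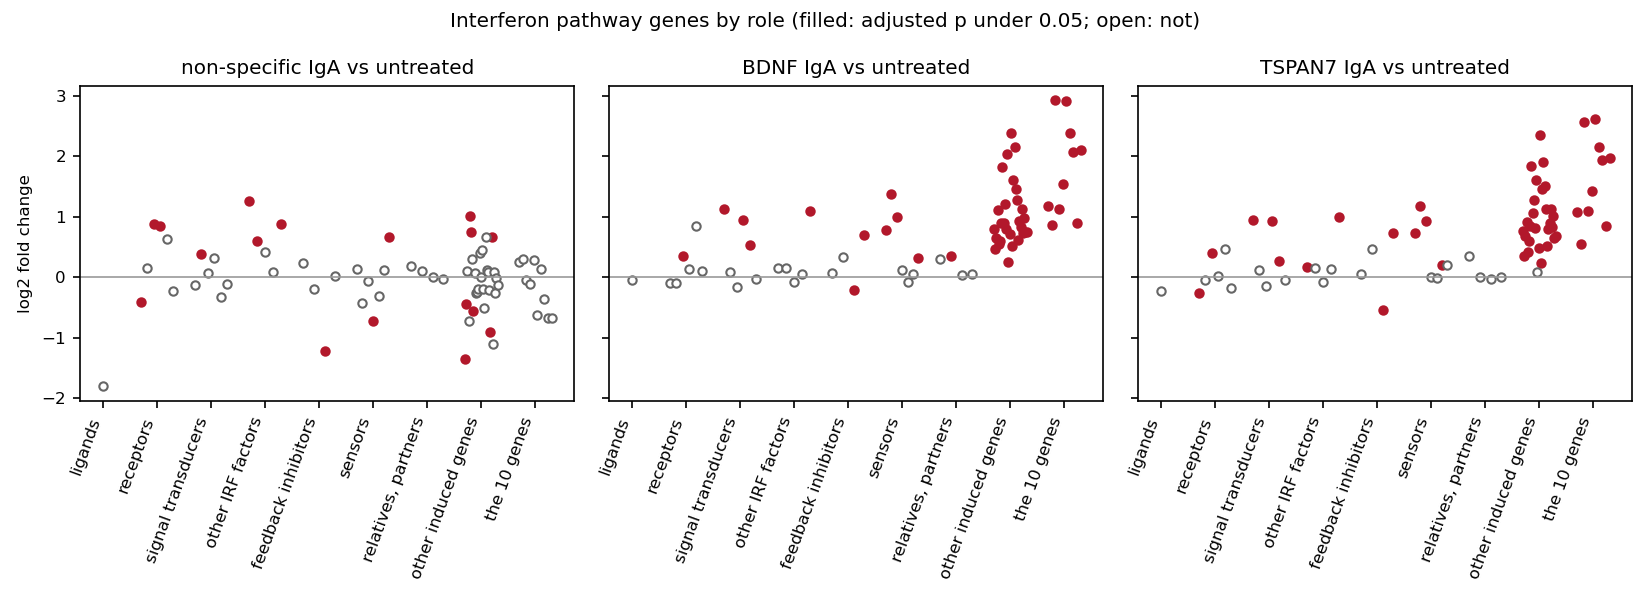
Log2 fold changes against untreated cells of the same series for the 61 pathway genes tested, by role, and for the 10 members; filled points passed the test and open points did not. With BDNF IgA and TSPAN7 IgA the induced effectors and the 10 genes lie above 0, whereas with non-specific IgA they lie on both sides.

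Genes whose pattern over the 18 libraries was most like that of each member were sought among 17547 genes by the root mean square difference in log2 CPM, after centring each gene on its mean in each series. The nearest to MX1 was IFIT1, at a difference of 0.12, and the nearest to IFI35 was IFIT3, another gene of that family, at 0.14. IFI27 and IFI44L were each nearest to the other, at 0.26. IFI6 was nearest to ISG15 (0.23), IFI44 to OAS3 (0.19), MX2 to PARP9 (0.17), BST2 to HERC6 (0.20) and IFI16 to GCNT3 (0.16). XAF1 was nearest to MX1, but at 0.47, and has few counts in the first series. The median difference over all genes ranged from 0.42 for IFI16 to 1.00 for IFI44L, so that members with larger changes stand further from most genes. These likenesses rest on the same libraries that chose the members.

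Markers of other cells, apart from the collagen gene COL1A1, were low throughout. Of the 9 found, for blood cells of several kinds and for fibroblasts, the summed level ranged from 19.7 to 26.0 CPM in untreated cells of the first series, 19.5 to 20.7 with IgG and 24.0 to 38.8 with IgA. In the second series it ranged from 13.3 to 16.9 in untreated cells, 16.8 to 19.5 with BDNF IgA and 14.7 to 16.9 with TSPAN7 IgA. Most of it was COL1A1, a collagen gene. PTPRC, which marks leukocytes, gave 1.59 CPM at most. MS4A1, a B-cell marker, was at 0 in all 9 libraries of the first series, and CD3E, of T cells, in all 9 of the second. The part of these cells in the members' values was not tested.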

How the data were processed

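The authors removed adaptors from the read pairs (cutadapt 1.8.1), mapped them to GRCh37 (STAR) and counted uniquely mapped reads per gene. The methods name featureCounts and the submitters' processing notes name HTSeq 0.6.1. The deposited values are raw counts, with no normalization. Of 57820 rows in the second series 2055 repeated another row exactly and were removed. The 9 libraries of a series entered a single fit (edgeR 4.0.16, R 4.3.3, TMM scaling, filterByExpr with a minimum count of 10, quasi-likelihood F test, two-sided). P-values were adjusted by Benjamini-Hochberg over all genes tested, 18012 and 18732, with 0.05 as the threshold of a call. All 10 members passed the filter in both series. No library was a copy of another: chi-square over its degrees of freedom was at least 3.91 between replicates. It was 67.0, 184 and 232 between the replicates with non-specific IgA. Between IgG replicates and between untreated replicates of the first series it ranged from 6.60 to 25.0. No column of other samples was left out.

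The members and the gene lists were chosen with earlier results of these data known. All members were named in every comparison. From the pathway list the receptors and transducers called and the 3 other called genes with the largest change in each comparison were named, apart from items not reported here, and for each member the 3 nearest genes were computed and the first given. Positions are from GENCODE on GRCh37 and promoters from RefSeq on GRCh38.p14. Alternatives were DESeq2 1.42.0, other scalings, no filter on low counts, leaving out mitochondrial genes, only the 6 libraries compared, a replicate block, a wider promoter window and leaving out each replicate. The pathway counts under these alternatives and the other transcript length were added once the data had been seen. Scripts were first tested on simulated data.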

Additional observations from a re-analysis of the deposited data

Results flagged for a closer look

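By edgeR's quasi-likelihood test TSPAN7 IgA stood below BDNF IgA for IFI27 (-0.36 on the log2 scale), IFI16 (-0.31), IFI44L (-0.31) and IFI6 (-0.22). This comparison shares its libraries with the contrasts on which the members were selected. All 3 TSPAN7 IgA libraries lay below all 3 BDNF IgA libraries for each of these genes. None of the 4 passed without BDNF IgA replicate 3, and none without TSPAN7 IgA replicate 2. DESeq2 did not call IFI27 (adjusted p = 0.0904).

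MX1, MX2 and IFI44L lay below the untreated mean of their series in every library with non-specific IgA and above it in every library with BDNF IgA or TSPAN7 IgA. The members were chosen as higher with specific IgA, so their place above the mean there describes the choice. With non-specific IgA their log2 differences from untreated cells were -0.35 for MX1, -0.67 for MX2 and -0.62 for IFI44L. None of these passed edgeR's quasi-likelihood test (adjusted p = 0.119, 0.0722 and 0.0890). In that comparison libraries did not overlap for 2 of the 10 members, MX1 and MX2, and for 39.9% of all genes. Those of IFI44L did overlap. The share of all genes with every IgA library on the same side of the untreated mean was not computed. The difference between the responses was not tested, and it is confounded with the series and with the source of the antibodies.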

How the results depend on the processing

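Against untreated cells, all 10 members were called higher with BDNF IgA and with TSPAN7 IgA under every alternative run. For TSPAN7 IgA against BDNF IgA, 4 members were called lower, and 0 to 4 when single replicates were left out. For IgA against IgG, scaling by library size alone called 3 members lower (IFI44L, MX1, MX2), omitting the filter on low counts called 1 higher (BST2), and leaving out single replicates called 0 to 1 in each direction. For IgA against untreated cells, library size alone called 3 lower and leaving out replicates called 0 to 1 higher.

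Signs that turned belonged to values that passed no test. By library size alone these were IFI6 at -0.026 and IFI27 at -0.23 for IgA against IgG, IFI6 at -0.075 for IgA against untreated cells and IFI44L at 0.0050 for IgG against untreated cells. With no filter IFI27 stood at -0.0051 for IgA against IgG. Over the fits without single replicates, IgA against IgG ranged from -0.065 to 0.38 for IFI6 and -0.13 to 0.15 for IFI27. IgA against untreated cells ranged from -0.14 to 0.31 for IFI6, -0.39 to 0.020 for IFI35, -0.049 to 0.50 for IFI16 and -0.013 to 0.46 for BST2. IgG against untreated cells ranged from -0.20 to 0.13 for IFI6, -0.18 to 0.11 for IFI16, -0.12 to 0.024 for MX1, -0.0036 to 0.13 for IFI35, -0.33 to 0.16 for IFI44, -0.19 to 0.11 for IFI44L, -0.22 to 0.058 for MX2 and -0.19 to 0.083 for IFI27. TSPAN7 IgA against BDNF IgA ranged from -0.076 to 0.054 for IFI35 and -0.13 to 0.077 for MX2. Where a count or sign moved, the cause was not tested beyond the samples or genes left out.

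Same-numbered libraries did not deviate together (correlations -0.07 to 0.25 among the first 9 libraries and -0.02 to 0.09 among the other 9), so the numbers were not taken to pair them. With the replicate block the members called numbered 0, 0 and 0 in the first series, then 10 and 10 against untreated cells in the second, and 4 lower for TSPAN7 IgA against BDNF IgA, as without it. Depth limits XAF1 most, which had at most 17 counts in any of the first 9 libraries.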
